A study of Mus musculus with 9 samples.

Results

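The genes followed here were chosen by symbol: Srebf2, Hmgcs1, Idi1, Sqle, Lss, Cyp51, Dhcr7 and Ch25h, which are 8 of the 56398 features of the count table. They stand for the control of cholesterol synthesis (Srebf2), its enzymes (6 genes) and the making of an oxysterol (Ch25h). The working name of the group also speaks of cholesterol uptake, but none of the 8 is a gene of uptake, and genes of uptake enter only through a further list described below. Bulk RNA was sequenced from 9 samples of the BALB/c mouse strain in 3 groups of 3. Healthy colon makes up the sham group. For the model group, the tissue is colon tumour grown from CT26 cells, a colon carcinoma line of BALB/c origin, injected into mice of that strain and given saline once a day. The AC group is the same kind of tumour after Astragalus and Curcuma phaeocaulis Valeton, mixed 2:1, once a day at 6 g/kg; the labels give 6 g/kg for the saline as well. The ages of the mice, the site of injection and the length of treatment are not stated in these sources. All tumours come from 1 injected cell line and also hold cells of the host. Nothing says that the 3 samples of a group are separate animals, so a p-value here speaks only of the spread among these libraries, part or all of which may be technical.

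Cholesterol is built from acetyl-CoA in a long chain of enzymes that passes through mevalonate, the isoprenoids, squalene and lanosterol. When sterol in the endoplasmic reticulum runs low, the SREBP2 protein, the product of Srebf2, is cut by proteases in the Golgi and its freed part enters the nucleus, where it switches on the genes of this chain through sterol regulatory elements in their promoters. Oxysterols such as 25-hydroxycholesterol hold SREBP2 back, and the enzyme that makes this oxysterol, the product of Ch25h, is known as an interferon-induced gene of macrophages and other cells. In the intestine the epithelium makes cholesterol of its own and absorbs it from food.

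RefSeq promoter entries (250 bases before to 50 after a start, GRCm38.p6) were found for 7 of the 8 members. The stretches of Hmgcs1, Dhcr7 and Ch25h are shown because these were the members that differed most between tumour and colon. Each runs 5′ to 3′ on the strand of the gene and stops before the annotated transcript. Capitals mark matches on either strand to the core letters of a sterol regulatory element (TCACNCCAC), the CCAAT box (CCAAT), the GC box (GGGCGG) and the core of the interferon-stimulated response element.
Hmgcs1: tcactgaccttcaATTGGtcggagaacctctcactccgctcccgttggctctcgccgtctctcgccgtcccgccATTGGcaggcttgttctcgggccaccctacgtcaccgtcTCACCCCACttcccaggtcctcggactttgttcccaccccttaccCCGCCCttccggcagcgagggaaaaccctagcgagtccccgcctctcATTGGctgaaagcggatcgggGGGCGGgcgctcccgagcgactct
Dhcr7: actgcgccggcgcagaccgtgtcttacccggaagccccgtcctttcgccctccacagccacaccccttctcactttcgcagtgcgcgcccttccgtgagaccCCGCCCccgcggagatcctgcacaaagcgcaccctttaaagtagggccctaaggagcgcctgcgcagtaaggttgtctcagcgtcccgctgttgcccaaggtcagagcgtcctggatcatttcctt
Ch25h: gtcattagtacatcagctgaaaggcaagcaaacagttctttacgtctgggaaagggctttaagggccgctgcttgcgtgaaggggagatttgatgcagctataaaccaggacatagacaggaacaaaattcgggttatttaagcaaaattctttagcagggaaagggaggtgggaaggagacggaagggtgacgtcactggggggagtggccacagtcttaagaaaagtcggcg
The Hmgcs1 stretch lies at chr13:119690101-119690350 on the plus strand, that of Dhcr7 at chr7:143822917-143823144 on the plus strand and that of Ch25h at chr19:34475165-34475398 on the minus strand. Hmgcs1 was the only one of the 7 members with a match to the sterol element core before the start; its promoter also held 3 CCAAT and 2 GC box matches there. Over the first 250 bases of all 32851 mouse promoters in the RefSeq table, the sterol element core was found in 1.05%, CCAAT in 33.8%, the GC box in 32.7% and the interferon element core in 2.98%. The Dhcr7 stretch held 1 GC box; RefSeq has a further Dhcr7 entry, at a start inside the annotated gene and not printed, with 2 CCAAT and 3 GC box matches before that start. The Ch25h stretch held none of the 4 motifs. These are matches of letters, not measured binding, and the lack of a match says only that these letters are not in the window.

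All genes were compared with edgeR on read counts, and a gene is called where its p, adjusted over all genes tested by the Benjamini-Hochberg method, is under 0.05. Levels are given as CPM (counts scaled to library size, with TMM factors over the 9 libraries) or, to compare genes with each other, as FPKM (scaled per gene length). Total counts per library ran from 15690038 to 23476056. All 8 members passed the filter on low counts in each comparison. Ch25h, with 6, 7 and 8 reads in sham 1 to 3, passed against colon only through the tumour libraries. Libraries stood apart in ways the groups do not explain. In sham 1, the summed level of 6 smooth muscle markers was 238 CPM against 1460 and 1580 in sham 2 and 3, and that of 6 B and plasma cell markers was 1210 CPM against 207 and 146. Model 1 and AC 3 held more RNA of colonic epithelium than the other tumours: Epcam was at 36.1 and 68.0 CPM there and at 0.259 to 0.952 CPM in the other 4. Where leaving out 1 of these libraries ended a call or moved a called value by over 1.5 times, the value without it is given.

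Tumours and colon differed in 1 enzyme at the head of the pathway, in 1 at its end and in the oxysterol enzyme by a wide margin, and in the members between them by little. In model tumours Hmgcs1 and Dhcr7 were 3.94-fold and 4.66-fold lower than in colon, while Ch25h was 31.0-fold higher. Idi1 and Cyp51 fell by smaller amounts, and Srebf2, Sqle and Lss did not pass the test. Of the 8 members, 1 rose and 4 fell, and their median log2 fold change was -0.49 against 0.12 over all genes tested. Tissue as different as tumour and colon changes most genes: 69.7% of the 18228 genes tested were called (36.8% higher and 32.9% lower), so 5 of 8 called members is near the share of genes at large. For 77.2% of all genes, colon and model libraries had ranges that did not overlap.

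**Figure D1:**
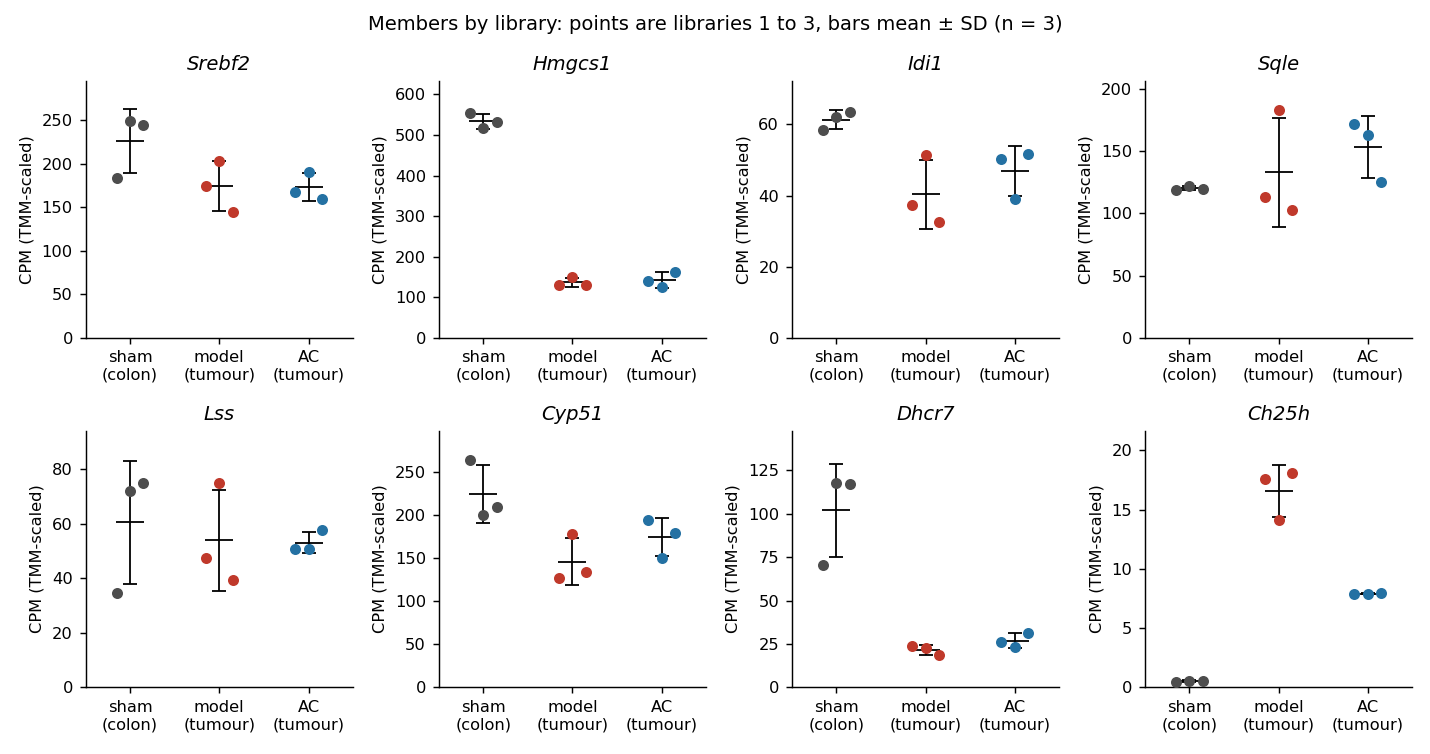
CPM of each member (vertical axis, starting at 0) in the 3 libraries of sham colon, model tumour and AC tumour; points are libraries 1 to 3 and the bars mean ± SD. Hmgcs1 and Dhcr7 are lower in all 6 tumours than in all 3 colons, Ch25h is higher, and the AC tumours sit at 7.86 to 7.97 CPM of Ch25h, below the 14.1 to 18.1 CPM of the model tumours.

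Srebf2 (ENSMUSG00000022463, chromosome 15, 82147181 to 82205379 on GRCm38, plus strand) encodes the transcription factor itself. It stood at 184, 249 and 245 CPM in sham 1 to 3, at 175, 203 and 145 CPM in the model tumours and at 168, 191 and 160 CPM in the AC tumours. The colon and tumour libraries overlapped, since sham 1 was as low as the tumours. Model tumours differed from sham by a log2 fold change of -0.37 (SE 0.179, 95% interval -0.80 to 0.06, edgeR adjusted p = 0.106). Without sham 1 it was -0.48 with an edgeR adjusted p of 0.0109. For AC tumours it was -0.39 (SE 0.144, edgeR adjusted p = 0.0467), a call that ended in most of the alternatives and turned to 0.26 without scaling factors. In AC against sham it was -0.34 without AC 3 (edgeR adjusted p = 0.132) and -0.59 without sham 1 (edgeR adjusted p = 0.00169). The activity of SREBP2 is set by cutting of the protein, which RNA levels do not show.

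Hmgcs1 (ENSMUSG00000093930, chromosome 13, 119690379 to 119708260, plus strand) makes HMG-CoA, the precursor of mevalonate. It was measured at 554, 517 and 532 CPM in sham 1 to 3. In the model tumours it was at 131, 149 and 129 CPM, and in the AC tumours at 141, 124 and 162 CPM. Every tumour library was below every colon library, and the 3 colon libraries lay close together. On the log2 scale the fold change was -1.98 in model against sham (SE 0.14, 95% interval -2.31 to -1.64, edgeR adjusted p = 5.96e-05) and -1.92 in AC against sham (SE 0.169, edgeR adjusted p = 0.00017).

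Idi1 (ENSMUSG00000058258, chromosome 13, 8885501 to 8892451, plus strand) converts isopentenyl diphosphate to dimethylallyl diphosphate. It stood at 58.3, 62.2 and 63.4 CPM in colon, at 37.2, 51.3 and 32.5 CPM in model tumours and at 50.4, 38.9 and 51.6 CPM in AC tumours. All tumour libraries were below the colon libraries. In model against sham the log2 fold change was -0.61 (SE 0.19, edgeR adjusted p = 0.026), and the call ended without model 1 (-0.54, adjusted p = 0.0932) and without model 3 (-0.43, adjusted p = 0.0863). For AC tumours it was -0.39 (edgeR adjusted p = 0.0626).

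Sqle (ENSMUSG00000022351, chromosome 15, 59315077 to 59331192, plus strand) is squalene epoxidase, which adds the first oxygen to squalene. The colon libraries were within 119 to 122 CPM. The model tumours spread widely, at 113, 183 and 103 CPM, and so did the AC tumours, at 172, 163 and 125 CPM. Colon lay inside the range of the model tumours and just under that of the AC tumours. The log2 fold change was 0.14 in model against sham (95% interval -0.41 to 0.69, edgeR adjusted p = 0.604) and 0.34 in AC against sham (95% interval 0.00 to 0.68, edgeR adjusted p = 0.0689). Without AC 3 the second was 0.47, with an edgeR adjusted p of 0.022.

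Lss (ENSMUSG00000033105, chromosome 10, 76531588 to 76557138, plus strand) is lanosterol synthase, which closes the sterol rings. It was at 34.5, 72.1 and 75.0 CPM in colon, with sham 1 far below the other two, at 47.5, 74.8 and 39.3 CPM in model tumours and at 50.9, 50.7 and 57.7 CPM in AC tumours. The 3 groups overlapped. The log2 fold change was -0.16 in model against sham (95% interval -0.99 to 0.67, edgeR adjusted p = 0.701) and -0.18 in AC against sham (edgeR adjusted p = 0.581). Without sham 1 the second was -0.55, with an edgeR adjusted p of 0.00174.

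Cyp51 (ENSMUSG00000001467, chromosome 5, 4081145 to 4104746, minus strand) removes a methyl group from lanosterol. Its values are uncertain to a degree, because 166 bp of its exons lie opposite exons of Akap9, which had up to 4510 counts, and the strand setting of the counting is unknown. It stood at 264, 201 and 210 CPM in colon, at 127, 178 and 134 CPM in model tumours and at 195, 151 and 179 CPM in AC tumours. Between model and sham the log2 fold change was -0.64 (SE 0.2, edgeR adjusted p = 0.0264), and the call ended without model 1 (-0.53, adjusted p = 0.0983) and without model 3 (-0.53, adjusted p = 0.11). AC tumours gave -0.38 (edgeR adjusted p = 0.115).

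Dhcr7 (ENSMUSG00000058454, chromosome 7, 143823145 to 143848410, plus strand) catalyses the last step, from 7-dehydrocholesterol to cholesterol. Its level was 70.8, 118 and 117 CPM in colon, lowest in sham 1. In the model tumours it was 23.9, 22.8 and 18.5 CPM, and in the AC tumours 25.9, 23.4 and 31.5 CPM. No tumour came near the lowest colon library. Its log2 fold change was -2.22 in model against sham (SE 0.228, 95% interval -2.77 to -1.67, edgeR adjusted p = 0.000244) and -1.92 in AC against sham (SE 0.232, edgeR adjusted p = 0.000575).

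Ch25h (ENSMUSG00000050370, chromosome 19, 34473778 to 34475164, minus strand), an intronless gene, was almost silent in colon, with 6, 7 and 8 reads in sham 1 to 3, which are 0.460, 0.560 and 0.562 CPM. The model tumours held 17.6, 14.1 and 18.1 CPM and the AC tumours 7.86, 7.89 and 7.97 CPM. The 3 groups did not overlap anywhere. This amounts to a log2 fold change of 4.96 in model against sham (SE 0.261, 95% interval 4.33 to 5.58, edgeR adjusted p = 2.72e-05) and 3.88 in AC against sham (SE 0.28, 95% interval 3.21 to 4.55, edgeR adjusted p = 8.52e-05). The few reads in colon limit the precision of both folds, and the gene passed the filter there only through the tumours.

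In AC tumours against colon, which share the sham libraries with the comparison of model tumours, 1 member rose (Ch25h) and 3 fell (Hmgcs1, Dhcr7 and Srebf2), where 68.2% of the 17832 genes tested were called (35.5% higher and 32.7% lower) and 75.9% had groups that did not overlap. Leaving out sham 1 gave 6 called members in each comparison with colon. Over all genes tested it gave 15339 of 19464 called in model against sham and 14360 of 18976 in AC against sham. The main fits called 12697 of 18228 and 12165 of 17832. Leaving out sham 1 and AC 3 together gave 8 called members in AC against sham, with Sqle higher at 0.40 and Lss lower at -0.60. In that fit 15059 of 18532 genes tested were called. Leaving out model 1 or model 3 left 3 called members in model against sham, beside 11801 of 18897 and 11756 of 19284 genes tested. In bulk tissue, fewer cells of a type and less RNA per cell cannot be told apart. The summed level of 10 colonic epithelium markers was 31100 to 50600 CPM in colon and 193 to 1200 CPM in the tumours, and that of 6 markers of dividing cells was 200 to 583 CPM in colon and 1440 to 1820 CPM in the tumours. Their part in the differences of the members was not tested.

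The choice of scaling bears on the smaller differences with colon. The median log2 fold change of all genes in model against sham was 0.12 with TMM, 0.02 with RLE, 0.17 with upper-quartile and 0.72 with no scaling factors, and the share of called genes that were higher went from 52.8% to 67.3% without factors. In AC against sham these shares were 52.1% and 68.2%. Hmgcs1, Dhcr7 and Ch25h were called in the same direction under each of these scalings in both comparisons with colon. Without factors, Srebf2 and Lss lay above 0 in both comparisons, Idi1 and Cyp51 were at 0.00 and -0.03 in model against sham, and Sqle was called higher, at 0.74 and 0.99.

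A ratio of genes within a library is free of that choice. The FPKM of Sqle was 0.177, 0.196 and 0.187 of that of Hmgcs1 in sham 1 to 3, 0.716, 1.02 and 0.660 in the model tumours and 1.02, 1.09 and 0.640 in the AC tumours. Each tumour thus had more Sqle per Hmgcs1 than each colon, with means that were 4.28-fold and 4.91-fold higher. The ratios of Srebf2, Idi1, Lss and Cyp51 to Hmgcs1 were likewise higher in all 6 tumours, by 2.54-fold to 3.42-fold in the means of model tumours. With 3 libraries against 3, an exact two-sided permutation test cannot go below p = 0.1, so these are given as separations only. The ratio of Dhcr7 to Hmgcs1 did not separate tumours from colon: its mean was 0.152 ± 0.0442 in sham, 0.126 ± 0.0163 in model and 0.149 ± 0.00387 in AC libraries (SD, n = 3). All these ratios share Hmgcs1, which was itself lower in tumours, so they are not independent of each other or of that fall. How many of all genes would separate in the same way was not counted. Unequal change among the enzymes is what the ratios show, not that any of them stayed the same.

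**Figure D2:**
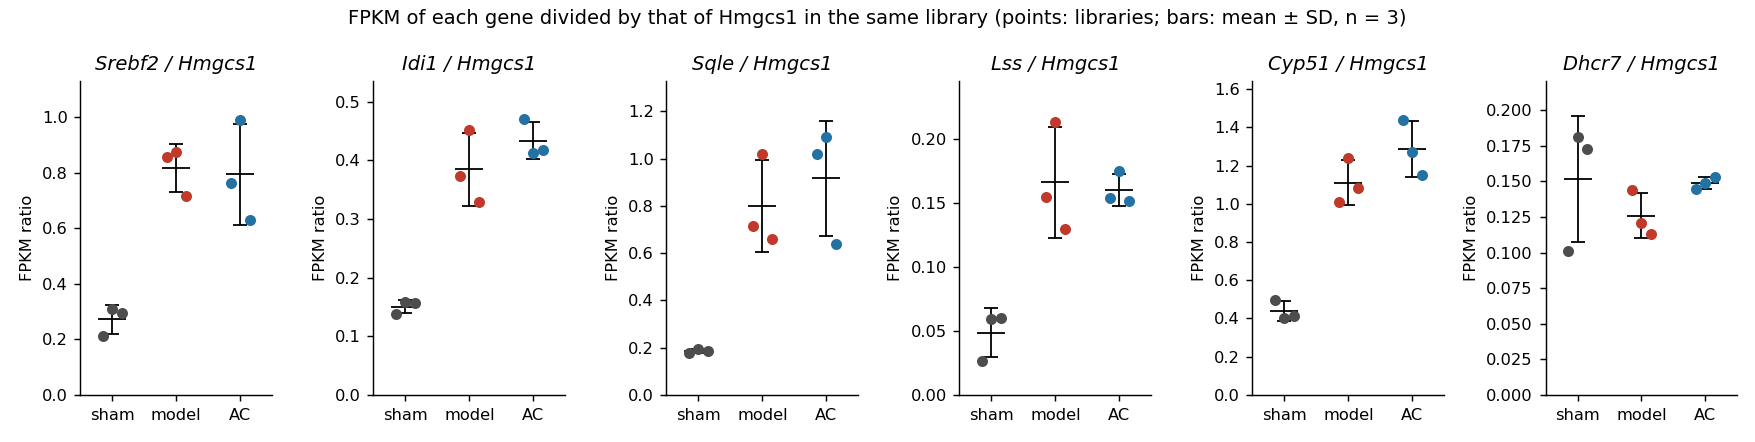
FPKM of 6 members divided by the FPKM of Hmgcs1 in the same library (vertical axes, starting at 0) for sham colon, model and AC tumours; points are libraries, bars mean ± SD (n = 3). The ratios of Srebf2, Idi1, Sqle, Lss and Cyp51 are higher in all 6 tumours than in colon, while that of Dhcr7 overlaps.

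The order of the members by level changed with tissue. By mean FPKM, Hmgcs1 led in colon at 87.5 ± 8.98 (SD, n = 3), followed by Cyp51 at 38.6 ± 8.71, Srebf2 at 23.4 ± 2.34, Sqle at 16.3 ± 0.97, Idi1 at 13.1 ± 0.336, Dhcr7 at 13.0 ± 2.73, Lss at 4.14 ± 1.34 and Ch25h at 0.292 ± 0.0137. Idi1 and Dhcr7 could not be ordered there, as the range of Dhcr7 (9.88 to 14.8 FPKM) held that of Idi1. In model tumours Cyp51, at 37.7 ± 6.69 FPKM, and Hmgcs1, at 33.8 ± 2.25 FPKM, overlapped, and Srebf2, at 27.6 ± 4.08 FPKM (23.6 to 31.8), lay below the range of both. Sqle, at 27.2 ± 8.49 FPKM (21.7 to 37.0), overlapped all 3. Ch25h (14.0 ± 2.07 FPKM) and Idi1 (13.1 ± 2.96 FPKM) overlapped next, then Lss at 5.68 ± 1.87 FPKM and last Dhcr7 at 4.25 ± 0.475 FPKM. In AC tumours Cyp51 was again first, at 46.3 ± 6.29 FPKM, and Ch25h, at 6.84 ± 0.102 FPKM, stood below Idi1, at 15.7 ± 2.48 FPKM, with no overlap.

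The members also differed among libraries of a group. Srebf2, Hmgcs1, Idi1, Sqle, Lss and Cyp51, 6 of the 8 members, were highest in model 2 of the 3 model libraries, and 6 members (Srebf2, Hmgcs1, Idi1, Sqle, Lss and Dhcr7) were lowest in model 3. Sqle in model 2 was at 183 CPM against 113 and 103 CPM in the others. Of the AC libraries, AC 3 was highest for 5 members (Hmgcs1, Idi1, Lss, Dhcr7 and Ch25h), and AC 2 was lowest for 5 (Hmgcs1, Idi1, Lss, Cyp51 and Dhcr7).

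Herb-treated and saline-treated tumours were set side by side to ask whether the AC treatment moved these genes. No member passed the test. Ch25h had the widest difference, with all 3 AC tumours below all 3 model tumours and a level 2.09-fold lower, while the 95% intervals of the 6 synthesis enzymes and Srebf2 included 0. In this comparison 0% of the 17137 genes tested were called by edgeR, with 2253 genes (13.1%) at an unadjusted p under 0.05; DESeq2 called 284 genes and limma-voom 0. The smallest edgeR adjusted p of any gene was 0.103.

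For Ch25h the log2 fold change in AC against model was -1.06 (SE 0.153, 95% interval -1.41 to -0.72, unadjusted p = 7.73e-05, edgeR adjusted p = 0.11), rank 12 of all genes tested by p. Over the alternatives the log2 fold change stayed between -1.17 and -0.99, and the adjusted p ran from 1.5e-05 with DESeq2 to 0.62 with all 9 libraries in 1 fit. The gene was called with no filter on low counts (edgeR adjusted p = 0.00407), with DESeq2 and without AC 3 (edgeR adjusted p = 0.0219). Over all genes, these settings called 105, 284 and 569. The libraries of the groups do not overlap for 19% of all genes in this comparison.

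**Figure D3:**
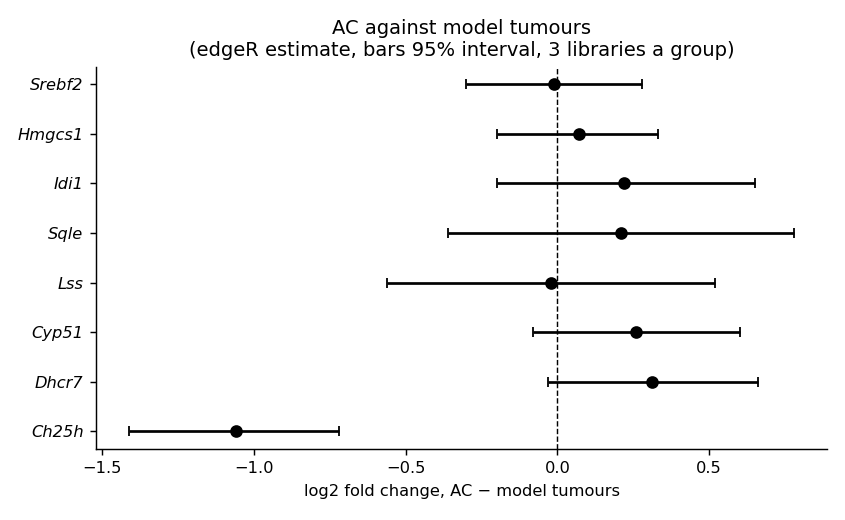
Log2 fold change of AC against model tumours (horizontal axis) for the 8 members with 95% intervals from edgeR (3 libraries a group). The interval of Ch25h, -1.41 to -0.72, lies wholly below 0, and the intervals of the other 7 include 0.

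The intervals bound what these libraries could have shown for the other members. Hmgcs1 differed by 0.07 (95% interval -0.20 to 0.33) and Srebf2 by -0.01 (-0.30 to 0.28), so a change of either beyond about that size is outside the interval. Dhcr7 was at 0.31 (-0.03 to 0.66), Cyp51 at 0.26 (-0.08 to 0.60), Idi1 at 0.22 (-0.20 to 0.65), Sqle at 0.21 (-0.36 to 0.78) and Lss at -0.02 (-0.56 to 0.52). These are wide enough to hold modest rises. Of the 6 synthesis enzymes 5 lay above 0, with a median of 0.22 against 0.01 over all genes, and 4 did so without AC 3. The ratio of Dhcr7 to Hmgcs1 was 0.145, 0.149 and 0.153 in AC tumours and 0.144, 0.121 and 0.113 in model tumours, which do not overlap, though AC 1 and model 1 are nearly equal.

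Fibroblast and macrophage markers were summed and set beside Ch25h. The summed level of 7 fibroblast markers was 2310, 1820 and 1950 CPM in model tumours and 1270, 1280 and 1740 CPM in AC tumours, and 159 to 228 CPM in colon. The order of the groups was that of Ch25h, but AC 3 was near the model tumours for the fibroblast sum and not for Ch25h. Col1a2 carried much of the fibroblast sum, at 1260, 1050 and 1000 CPM in model and 902, 824 and 919 CPM in AC tumours. Col1a1, Pdgfra and Pdgfrb were also lower in all AC tumours, while Col3a1, Dcn and Lum overlapped. The summed level of 8 macrophage markers was 781, 871 and 1030 CPM in model tumours, 1260, 1100 and 866 CPM in AC tumours and 253 to 320 CPM in colon. Single genes carried much of this sum: Mrc1 was at 145 to 544 CPM in the tumours, and Cd14 was at 168 to 261 CPM in colon and at 56.9 to 83.2 CPM in the tumours. Adgre1, a defining macrophage marker, was at 44.8, 42.9 and 56.9 CPM in model and at 42.4, 32.3 and 52.0 CPM in AC tumours, which overlap. No marker of either list was at 0 in all libraries, and the part of these cells in the level of Ch25h was not tested.

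**Figure D4:**
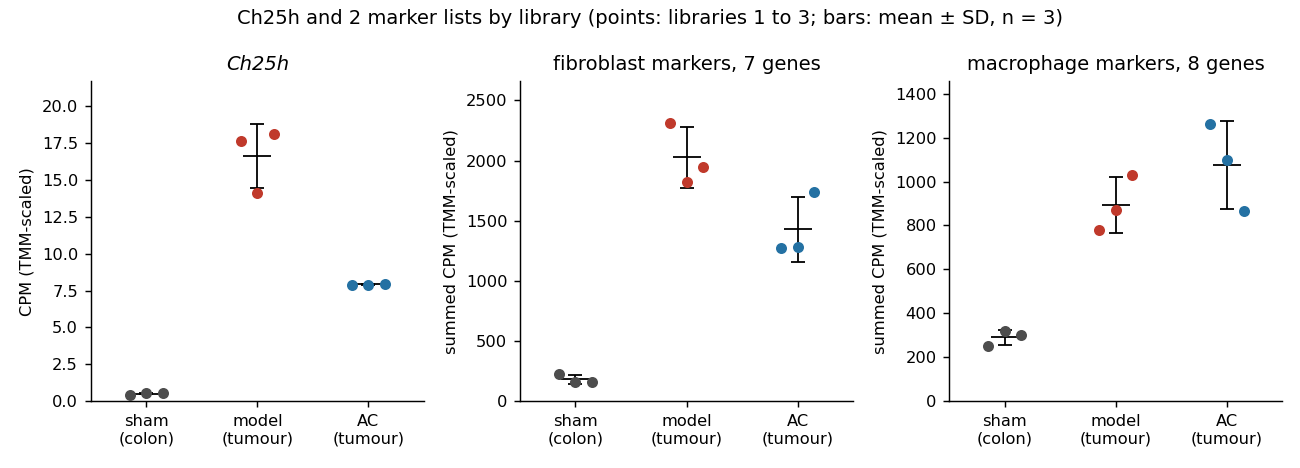
CPM of Ch25h and the summed CPM of 7 fibroblast and 8 macrophage markers (vertical axes, starting at 0) by library; points are libraries 1 to 3, bars mean ± SD (n = 3). AC tumours are below model tumours for Ch25h and for the fibroblast sum, and overlap them for the macrophage sum.

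The genes whose pattern over the 9 libraries came closest to each member were taken from 11094 genes with a mean of at least 5 CPM, by the root mean square difference of log2(CPM + 0.5) after centring each gene. For Ch25h these were Pdgfrb (0.17), Tgtp2 (0.19) and Rtkn2 (0.19). Pdgfrb, a growth factor receptor of stromal cells and 1 of the fibroblast markers above, was at 111, 79.9 and 87.6 CPM in model tumours, 43.9, 56.0 and 58.5 CPM in AC tumours and 4.75 to 6.00 CPM in colon. Tgtp2 was at 59.1, 50.5 and 61.0 CPM in model tumours, 30.7, 25.7 and 36.2 CPM in AC tumours and 2.32 to 3.07 CPM in colon. Rtkn2 was at 13.6, 12.1 and 10.8 CPM in model tumours, 6.00, 6.07 and 7.23 CPM in AC tumours and 0.16 to 0.23 CPM in colon. Hmgcs1 was closest to Rdh14, Lmbrd1 and Vdac3 (0.09 each), and Dhcr7 to Nudt14 (0.10), AU040320 (0.11) and Ilvbl (0.11). Idi1 was closest to Eme2 (0.11) and then to Pmvk (0.13), the kinase of phosphomevalonate and the only gene of the pathway lists among the 3 nearest of the synthesis members. Srebf2 was closest to Trappc12 (0.07), Sqle to Dcaf13 (0.14), Lss to Pi4ka (0.16) and Cyp51 to Cir1 (0.10). Among the members themselves, Idi1 and Cyp51 (0.15) and Hmgcs1 and Dhcr7 (0.26) lay closer than Hmgcs1 and Sqle (1.05).

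The other genes of the synthesis pathway were followed through a list of 15. In model tumours against colon 10 fell, 1 rose and 4 did not pass the test, with a median log2 fold change of -1.06. Over all genes tested, 32.9% fell and 36.8% rose in that comparison, and 32.7% fell and 35.5% rose in AC against sham. Fdft1, which makes squalene, fell by 1.55 (SE 0.161, edgeR adjusted p = 0.000255), from 166 to 177 CPM in colon to 50.6 to 70.5 CPM over the 6 tumours. Lbr, a sterol reductase that also anchors chromatin to the nuclear envelope, was the gene that rose, by 1.30 (SE 0.25, edgeR adjusted p = 0.00334).

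In AC tumours against colon 9 of the 15 fell and 2 rose, Lbr by 1.28 and Acat2, which joins acetyl-CoA units, by 0.67 (edgeR adjusted p = 0.00415 and 0.00862). Without scaling factors 8 fell and 3 rose in model against sham, and 6 fell and 3 rose in AC against sham. In AC against model tumours none of the 15 was called by edgeR, 2 had an unadjusted p under 0.05, 14 lay above 0 and the median was 0.25. Without model 3 or without AC 3 this became 12 above 0, with medians of 0.11 and 0.17. The 2 were Ebp, a sterol isomerase, at 0.52 (edgeR adjusted p = 0.264), and Msmo1, a sterol demethylase, at 0.38 (edgeR adjusted p = 0.29), named after their values were seen.

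**Figure D5:**
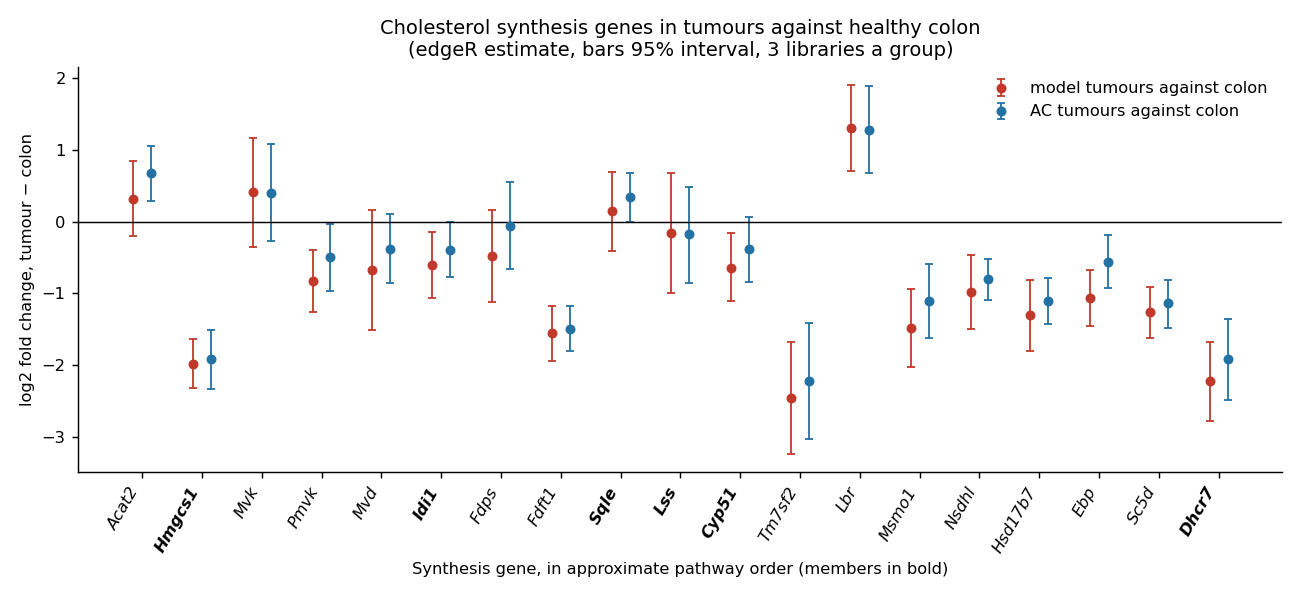
Log2 fold change against healthy colon (vertical axis) of synthesis genes in approximate pathway order, for model and AC tumours, with 95% intervals from edgeR (3 libraries a group; the sham libraries are shared). Most estimates lie below 0, among them Hmgcs1 at -1.98 and -1.92 and Dhcr7 at -2.22 and -1.92, and Lbr is above 0 at 1.30 and 1.28.

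Genes that control SREBP cutting went both ways. Of 9, 5 rose and 2 fell in model against sham, where 36.8% of all genes rose and 32.9% fell. The proteases that free the factor rose, Mbtps2 by 1.06 (SE 0.133, edgeR adjusted p = 0.000533) and Mbtps1 by 1.36 (SE 0.171, edgeR adjusted p = 0.000557). Insig2 and Insig1, which hold the SREBP escort in the endoplasmic reticulum, fell by 0.69 and by 0.52 (edgeR adjusted p = 0.00569 and 0.0185), but without scaling factors they were at -0.08 and 0.08 and not called. The call of Insig1 also ended without model 2 (-0.49, edgeR adjusted p = 0.0681) and without model 3 (-0.38, edgeR adjusted p = 0.0714). AC tumours against sham again gave 5 that rose and 2 that fell, beside 35.5% and 32.7% of all genes tested. Mbtps1 was at 1.15 and Mbtps2 at 0.92 there. None of the 9 was called by edgeR in AC against model.

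Uptake and transport inside the cell was followed through 15 genes, of which 14 were tested against colon. In model tumours 6 rose and 5 fell, beside 36.8% and 32.9% of all genes tested. Vldlr, a lipoprotein receptor, was at 23.4, 32.6 and 32.4 CPM in colon and at 140, 201 and 139 CPM in model tumours, a rise of 2.44 on the log2 scale (SE 0.205, edgeR adjusted p = 0.000114). Scarb1, the receptor for high-density lipoprotein, rose by 2.53 (SE 0.223, edgeR adjusted p = 0.000133), and all tumours, at 52.1 to 65.4 CPM, were above colon, at 7.36 to 12.7 CPM. Lipa, the lysosomal lipase that frees cholesterol from its esters, fell by 2.28 (SE 0.152, edgeR adjusted p = 4.9e-05), and Stard4, a sterol carrier, fell by 1.39 (SE 0.144, edgeR adjusted p = 0.000246). AC tumours against sham likewise gave 6 that rose and 5 that fell, beside 35.5% and 32.7% of all genes tested. Vldlr was at 2.11, Scarb1 at 2.48, Lipa at -2.48 and Stard4 at -1.55 there.

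In AC against model no gene of uptake and transport was called by edgeR, though 11 of 13 tested lay below 0. Gramd1b, a carrier of sterol from the plasma membrane, was at 34.2, 32.9 and 39.3 CPM in model tumours and at 18.0, 27.4 and 22.2 CPM in AC tumours (log2 fold change -0.65, edgeR adjusted p = 0.249). Mylip, a ubiquitin ligase for lipoprotein receptors, was at 40.0, 27.6 and 29.4 CPM and at 16.8, 17.0 and 25.7 CPM (log2 fold change -0.70, edgeR adjusted p = 0.272). Neither gene's groups overlapped, which held for 19% of all genes in this comparison. DESeq2 called both (adjusted p = 0.0253 and 0.0465), among 284 genes it called. Gramd1b was also called with no filter on low counts (edgeR adjusted p = 0.0486), where 105 genes were called. Mylip was called without AC 3 (edgeR adjusted p = 0.031), where 569 genes were called. They were named after their values were seen.

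Cholesterol leaves cells or is stored through 2 further lists. Of 5 tested genes of efflux and its LXR receptors, 3 rose and 1 fell in model tumours, beside 36.8% and 32.9% of all genes tested. Abca1, the efflux pump, rose by 2.72 (SE 0.659, edgeR adjusted p = 0.00934), from 44.2, 10.5 and 9.21 CPM in sham 1 to 3 to 148, 153 and 130 CPM in model tumours. Without sham 1 the rise was 3.89 (edgeR adjusted p = 3.8e-08). Nr1h3, which encodes LXR alpha, fell by 2.44 (SE 0.282, edgeR adjusted p = 0.000394). Of 6 tested genes of oxysterols, esters and bile acids, 3 rose and 1 fell, beside the same shares of all genes. Soat2, which esterifies cholesterol, rose by 4.62 (SE 0.493, edgeR adjusted p = 0.000285), from 0.536 to 2.32 CPM in colon to 33.3 to 50.3 CPM in model tumours. Cyp46a1, another sterol hydroxylase, was at 0, 0.080 and 0.070 CPM in sham 1 to 3 and at 2.72, 1.92 and 2.64 CPM in model tumours. It is counted among the 3 that rose (edgeR adjusted p = 0.000314). However, it passed the filter on low counts only through the tumours, and the reads in colon are too few for a fold. Cyp27a1, also a sterol hydroxylase, fell by 1.54 (SE 0.231, edgeR adjusted p = 0.00117). Each list had 5 genes tested in AC against sham, of which 2 rose and 1 fell, beside 35.5% and 32.7% of all genes tested.

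Among genes of the oxysterol list, Gpr183, the receptor for an oxysterol made from it, was at 2.43 to 4.30 CPM in the 6 tumours and at 11.2 CPM in sham 1 and 2.40 and 2.25 CPM in sham 2 and 3. Cyp7b1, the next enzyme on that route, was at 0.183 to 0.868 CPM in the tumours. Gpr183 and Cyp7b1 were named after their values were seen.

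Fatty acid synthesis, which the related factor SREBP1 drives, split. Of 8 genes, 3 rose and 2 fell in each comparison with colon. Over all genes, 36.8% rose and 32.9% fell in model against sham, and 35.5% rose and 32.7% fell in AC against sham. Acly, which makes acetyl-CoA in the cytosol, rose by 1.46 in model against sham (SE 0.12, edgeR adjusted p = 9.98e-05), and Elovl6, a fatty acid elongase, fell by 1.72 (SE 0.164, edgeR adjusted p = 0.000182). Among 8 genes of the isoprenoid branches, 2 rose and 3 fell in model against sham, and 0 rose and 3 fell in AC against sham. Pdss2, of ubiquinone synthesis, fell by 2.30 (SE 0.228, edgeR adjusted p = 0.000215), and Ggps1, of geranylgeranyl diphosphate synthesis, fell by 1.13 (SE 0.142, edgeR adjusted p = 0.000555). Over all 70 further pathway genes, 23 rose and 24 fell of 65 tested in model against sham and 20 rose and 23 fell of 64 in AC against sham, near the shares of all genes. Without scaling factors these became 36 and 17, and 33 and 13.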

How the data were processed

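RNA of 9 samples was sequenced after Trizol extraction, per the labels' protocols. The authors deposited a table of read counts and a table of FPKM; the submitters' processing notes name featureCounts 1.5.0-p3 and build mm9. For aligner, read length and strand setting, nothing is stated. The gene length implied by the deposited counts and FPKM was within 1% of GENCODE M21 exons (GRCm38) in 96% of 15424 genes that had 20 or more counts, so positions given are GRCm38.

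Groups came from the labelled treatment. A separate edgeR model (4.0.16, R 4.3.3) was fitted for each pair of groups over 6 libraries (TMM, filterByExpr, robust quasi-likelihood, Benjamini-Hochberg at 0.05), checked on simulated data. Fold changes come from these fits, and printed CPM from TMM over all 9 libraries. Alternatives were other scalings, no filter, DESeq2 1.42.0, limma-voom (limma 3.58.1), 1 fit of all libraries, a replicate block, libraries left out, and limma on log2(FPKM + 0.1). Libraries of a group were compared pairwise, and none held the same counts. Their chi-square per degree of freedom, a measure of difference, was 3.06 for sham 2 and sham 3. It was 100.45 and 118.84 for sham 1 against these, and 10.19 to 28.66 within the tumour groups. Intervals cover the spread between libraries.

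The members, lists and tests were chosen with earlier results of these data known. Named were the members, their 3 nearest genes, and, per list and comparison, up to 2 called genes in each direction by adjusted p; the text uses some of these. Some genes of the lists are counted but not reported by name here.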

Additional observations from a re-analysis of the deposited data

How the results depend on the processing

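Hmgcs1, Dhcr7 and Ch25h kept their direction and call against colon under all alternatives run. Called members numbered 5 in model against sham and 3 to 6 when 1 library was left out. In AC against sham they numbered 4, 3 to 6 with 1 library left out, and 8 without sham 1 and AC 3 together. Calls over all genes in model against sham numbered 12697, and 11677 to 15339 with 1 library left out. For AC against sham such calls numbered 12165, 10899 to 14360 with 1 library left out, and 15059 without sham 1 and AC 3 together. In AC against model 0 members were called, 1 with no filter and with DESeq2, and 0 to 1 with 1 library left out; of the other pathway genes 0 were called, 1 with no filter, 2 with DESeq2, and 0 to 1 with 1 library left out. Over all genes, AC against model gave 0 calls, 105 with no filter, 284 with DESeq2, 569 without AC 3 and 94 without model 1 and AC 3. The causes were not tested.

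Among the members, changes of sign touched values that were not called, apart from Srebf2 in AC against sham. Of called genes outside the members that the text names, Insig1 turned without scaling factors to 0.08 in model against sham and 0.12 in AC against sham, and Ebp to 0.09 in AC against sham. The call of Ebp in AC against sham also ended without AC 3 (-0.46, edgeR adjusted p = 0.0604) and without AC 2 (-0.49, edgeR adjusted p = 0.0731). In model against sham, without scaling factors and with limma on FPKM, Srebf2 turned to 0.24 and 0.23 and Lss to 0.46 in both; with 1 library left out, Sqle ran from -0.12 (without model 2) to 0.34 and Lss from -0.43 to 0.07 (without model 3). In AC against sham, the same 2 settings gave 0.26 in both for Srebf2, 0.26 and 0.24 for Idi1, 0.47 and 0.52 for Lss, and 0.26 and 0.28 for Cyp51. In AC against model, Srebf2 turned to 0.02 without factors, 0.03 on FPKM, 0.11 without model 2, 0.02 without AC 1, 0.03 without AC 3 and 0.03 without model 1 and AC 3; Hmgcs1 to -0.08 without model 1 and AC 3, and it ran from -0.05 (without AC 3) to 0.16 with 1 library left out; and Lss to 0.02 without factors, 0.03 with limma-voom, 0.03 with the replicate block, 0.29 without model 2, 0.02 without AC 1, 0.01 without AC 2 and 0.06 on FPKM, with -0.20 without model 3.

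Deviations of same-numbered libraries from their group means had r from -0.37 to 0.33 over genes. For differently numbered libraries r ran from -0.43 to 0.5. Deviations within a group are tied to each other through its mean, so these values cannot tell whether same-numbered libraries were paired. The replicate block gave 4 called members in model against sham, 0 in AC against model and 3 in AC against sham, and 46, 0 and 45 other pathway genes. Over all genes it gave 11774, 0 and 11303 calls.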
